A study of Mus musculus with 6 samples.

Results

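The genes of cholesterol synthesis and of its feedback control by SREBP2 were compared between a parental mouse line and a line labelled with the DNAJ-PKAc genotype. The set holds 32 genes chosen by pathway role, of 24054 genes in the deposited table. They are 19 genes of the synthesis route from acetyl-CoA to cholesterol, 5 SREBP regulators, 6 genes of sterol transport and storage, and the 2 LXR receptors. All 32 were found with a summed count of 10 or more over the 6 libraries, and 31 passed the filter on low counts and were tested. Only Abca1 did not pass.

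Total RNA was sequenced from the line TIBx, labelled with the liver cell type BNL 1ME A.7R.1. The 2 groups were WT, the parental line, and DNAJ-PKAc, labelled as an FLC line, with 3 libraries each (replicates A, B and C). DNAJ-PKAc joins a piece of the heat-shock partner protein DNAJB1 to the catalytic part of the kinase PKA, and this fusion marks fibrolamellar carcinoma (FLC), a liver cancer. Both groups were kept in the same DMEM medium with fetal bovine serum, L-glutamine, pyruvate, nonessential amino acids and HEPES. Each genotype was a single line, and the labels do not say how the DNAJ-PKAc line was made or whether it is a clone. An effect of the fusion and any other difference between the lines therefore cannot be told apart.

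Cells make cholesterol from acetyl-CoA through mevalonate, isoprenoid diphosphates, squalene and lanosterol. When sterols in the endoplasmic reticulum are scarce, SCAP escorts the transcription factor SREBP2 to the Golgi, where proteases release its active end, which enters the nucleus and switches on nearly every gene of the route. When sterols are plentiful, INSIG proteins hold SCAP back, and oxysterols switch on the LXR receptors, which drive the genes of sterol efflux. The liver is a main site of this synthesis.

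Library totals ran from 8095549 to 9969590 expected counts. Levels are given as CPM, the usual scale of counts relative to the library total, after scaling by TMM, a factor that balances the bulk of genes between libraries. Whether the replicates are separate cultures is not stated in the labels, and the p-values then measure only how these libraries spread, which may be technical. Prkaca, the gene of the kinase part of the fusion, ran from 63.6 to 87.6 CPM in WT and from 95.7 to 131 CPM in DNAJ-PKAc. The labelled liver cell type was checked with 7 hepatocyte markers (Alb, Apoa1, Ttr, Apob, Hnf4a, Tat and Serpina1a), and all 7 were at 0 counts in every library. The 5 fibroblast markers (Col1a1, Col1a2, Col3a1, Vim and Pdgfrb) summed to 24702 to 25920 CPM in WT, and in DNAJ-PKAc to 16179 (A), 15932 (B) and 29440 (C) CPM. Biliary markers summed to 7.84 to 8.88 CPM in WT and 0.975 to 1.68 CPM in DNAJ-PKAc, leukocyte markers to at most 4.45 CPM and endothelial markers to at most 2.32 CPM. In 2 libraries the RNA stood apart. In WT B the ribosomal precursor Rn45s took 2.66% of counts, against at most 1.05% elsewhere. Malat1 was at 10412 CPM there before TMM scaling, against 1065 to 4639 CPM elsewhere. In DNAJ-PKAc C 10 proliferation genes summed to 223 CPM, whereas they reached 2158 and 2305 CPM in the other DNAJ-PKAc libraries and 540 to 645 CPM in WT. Across genes, log2 CPM of DNAJ-PKAc C correlated at 0.914 and 0.911 with DNAJ-PKAc A and B. With WT A, B and C it correlated at 0.928, 0.912 and 0.933.

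Genes of every segment of the synthesis route rose in DNAJ-PKAc, and none of its regulators passed the test. Of the 19 synthesis genes, 10 rose, 0 fell, and all 19 had a fitted difference above 0. The 10 were Acat2 and Pmvk of the mevalonate segment, Idi1 and Fdps of the isoprenoid segment, Fdft1 and Lss of the squalene segment, and Cyp51, Nsdhl, 0610007P14Rik and Sc5d of the sterol segment. Their folds ran from 1.82 for Cyp51 to 3.02 for Pmvk. Of the 12 other members tested, 0 rose and 0 fell.

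The test was edgeR's 2-sided quasi-likelihood test with Benjamini-Hochberg adjustment over 10975 genes and a threshold of 0.05, and every adjusted p below is from it unless another tool is named. The 10 genes are 52.6% of the synthesis genes, beside 1.37% of all genes tested that were called higher and 2.14% called lower. DESeq2 called 15 synthesis genes higher, beside 3.17% of all genes, and limma-voom 10, beside 1.29%. The DESeq2 calls added Mvd, Sqle, Msmo1, Hsd17b7 and Ebp to the 10. Among the 12 other members, edgeR gave 0 genes higher and 2 lower at an unadjusted p under 0.05, DESeq2 called 1 lower and limma-voom 0 in either direction. Of all 10975 genes tested, 2363 had an unadjusted p under 0.05 in edgeR, in either direction, and DESeq2 called 626 lower. The median log2 difference (DNAJ-PKAc minus WT) was 0.96 over the synthesis genes and -0.13 over the others tested, beside 0.05 over all genes tested. Every WT count of all 19 synthesis genes was above the filter's minimum of 10, so none was tested only for its level in DNAJ-PKAc.

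**Figure D1:**
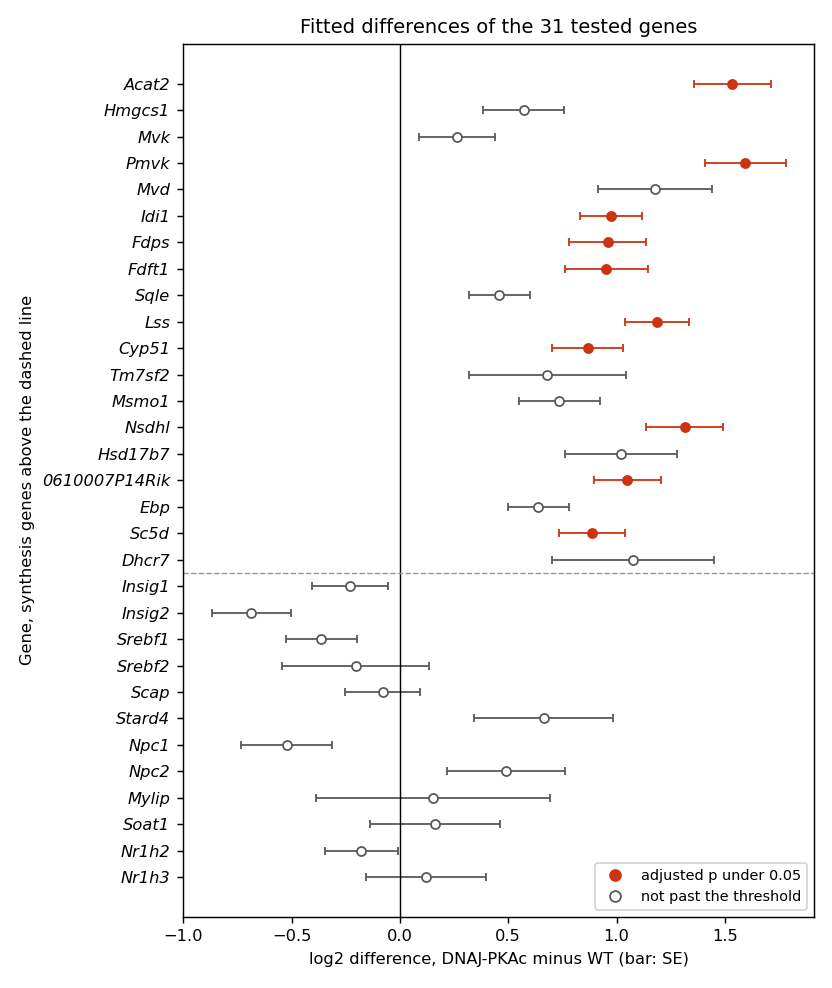
Fitted log2 difference (DNAJ-PKAc minus WT, horizontal axis) of each tested gene in pathway order, with bars of 1 standard error and filled points for an adjusted p under 0.05. The 19 synthesis genes all lie above 0, 10 of them filled, and the regulators, transport genes and LXR receptors lie between -0.69 and 0.66 with none filled.

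The separation of single libraries gave the same picture by count. In 17 of the 19 synthesis genes every DNAJ-PKAc library was above every WT library, the exceptions being Mvk and Tm7sf2. That is 89.5% of these genes, beside 15.8% of all genes tested. In 3 of the 12 other members tested (Insig2, Srebf1 and Npc1) every DNAJ-PKAc library was below every WT library, beside 13.1% of all genes tested. Summed over the 19 synthesis genes, the WT libraries A, B and C reached 2580, 2267 and 2697 CPM and the DNAJ-PKAc libraries 4337, 4481 and 4833 CPM. The means were 2515 ± 223 and 4550 ± 255 CPM (SD, n = 3 each), a ratio of 1.81. The sums did not overlap. As in any bulk sample, fewer cells of a type and less RNA per cell cannot be told apart.

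Promoter sequences were taken from RefSeq (GRCm38.p6, 250 bases before to 50 after each start), in which 16 of the 19 synthesis genes and 27 of the 32 members had an entry. Each was searched on both strands for the letters of elements known from this pathway and from cAMP signalling. SREBP2 is known to bind sterol response elements together with the factor NF-Y, and protein kinase A is known to act on the cAMP response element through CREB. The following stretches lie just before the start and outside annotated exons. Hmgcs1 is shown because it alone among the 27 held the sterol response letters TCACNCCAC. Lss, Nsdhl and Sc5d are shown because they rose in DNAJ-PKAc and carry the NF-Y letters ATTGG in such a stretch. Cyp51, Idi1 and Pmvk also rose and carry these letters but are not shown. For Cyp51 and Idi1 no sufficient stretch with the letters lay outside exons, and Pmvk has 2 promoter entries. Capitals mark the sterol response letters and the ATTGG boxes as read 5′ to 3′ on the gene's strand, here chr13:119690151-119690350 (plus) for Hmgcs1, chr10:76531405-76531587 (plus) for Lss, chrX:72918412-72918520 (plus) for Nsdhl and chr9:42264301-42264500 (minus) for Sc5d.
Hmgcs1: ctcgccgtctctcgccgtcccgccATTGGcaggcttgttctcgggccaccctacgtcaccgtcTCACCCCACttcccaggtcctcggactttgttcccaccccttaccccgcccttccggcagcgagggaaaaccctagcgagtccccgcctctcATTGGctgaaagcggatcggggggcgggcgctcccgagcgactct
Lss: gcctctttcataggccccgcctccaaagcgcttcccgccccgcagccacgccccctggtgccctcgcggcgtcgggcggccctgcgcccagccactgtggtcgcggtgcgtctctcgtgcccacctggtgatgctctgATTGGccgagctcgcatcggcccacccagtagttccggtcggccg
Nsdhl: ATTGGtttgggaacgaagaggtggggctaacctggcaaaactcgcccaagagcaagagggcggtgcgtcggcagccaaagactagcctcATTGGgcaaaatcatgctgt
Sc5d: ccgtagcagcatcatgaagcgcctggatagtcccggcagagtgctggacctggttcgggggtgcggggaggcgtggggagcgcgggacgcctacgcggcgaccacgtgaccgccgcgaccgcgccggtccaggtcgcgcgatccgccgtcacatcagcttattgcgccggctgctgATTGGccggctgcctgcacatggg
Shares are of genes, and a gene counted if any of its promoter entries held the letters. The NF-Y letters ATTGG were found for 14 of the 16 synthesis genes (87.5%) and 7 of the 11 other members (63.6%). The share was 43.7% of the 8321 tested genes with a promoter and 41.1% of all 27025. They were found for 6 of the 8 synthesis genes with an entry that rose and 8 of the 8 that did not pass the test. The sterol response letters were found for 1 of the 16 synthesis genes, against 1.35% of tested genes. The full cAMP response element TGACGTCA was in 0 of the 27, against 3.88% of tested genes, and its shorter form TGACG, which the full element contains, was in 7 of the 16 (43.8%), against 37.4%. The Sp1 box GGGCGG was in 15 of the 16 (93.8%), against 71.7%. These are matches of letters in a short window. They show no binding, and an absent match says only that the letters are not in that window.

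The first segment turns acetyl-CoA into mevalonate and its diphosphate. Acat2 (chr17:12942890-12960747, minus strand, GENCODE M21 on GRCm38, the source of all gene positions here), which joins 2 acetyl-CoA, was at 100, 84.6 and 122 CPM in WT and 297, 294 and 298 CPM in DNAJ-PKAc (here and below in the order A, B, C). Every DNAJ-PKAc library was at least 2.41 times the highest WT library, and the DNAJ-PKAc libraries differed from each other by a factor of only 1.01. The fold was 2.90 (log2 1.53, SE 0.18, adjusted p = 0.0088). Its expected counts were not whole, so some reads were shared with other genes and its level is uncertain. Pmvk (chr3:89454541-89469013, plus strand), phosphomevalonate kinase, was at 31.5, 27.1 and 29.3 CPM in WT and 86.0, 73.0 and 106 CPM in DNAJ-PKAc. All DNAJ-PKAc libraries were far above WT, with C the highest, and the fold of 3.02 was the largest of the 31 members tested (log2 1.59, SE 0.19, adjusted p = 0.0092).

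The other 3 genes of the segment did not pass the test. Mvd, which decarboxylates mevalonate diphosphate, ran from 70.6 to 98.7 CPM in WT and from 144 to 259 CPM in DNAJ-PKAc (log2 1.18, adjusted p = 0.0616), with DNAJ-PKAc C above the others. Hmgcs1, which makes HMG-CoA and whose promoter is printed above, ran from 212 to 262 CPM and from 320 to 434 CPM (log2 0.57, adjusted p = 0.155). In both genes the groups did not overlap. Mvk, mevalonate kinase, was the least different synthesis gene, with overlapping ranges of 53.0 to 71.8 CPM and 64.7 to 77.7 CPM (log2 0.26, adjusted p = 0.401). The kinase acting right after it, Pmvk, had the largest fold, and the contrast between both genes was not tested.

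**Figure D2:**
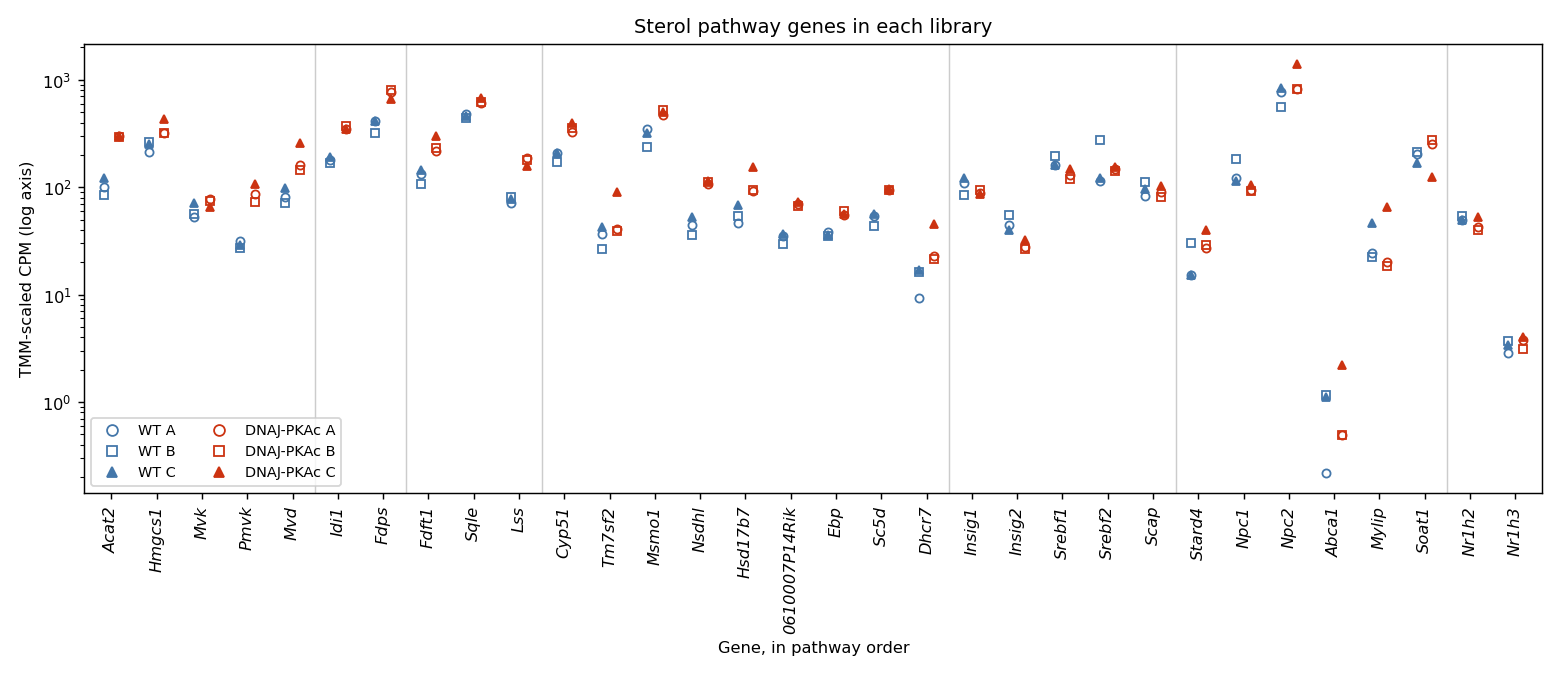
TMM-scaled CPM (vertical log axis) of all 32 genes in pathway order, with 1 point per library, WT blue and DNAJ-PKAc red, and grey lines between the segments. In 17 of the 19 synthesis genes the red points lie above all blue points, while most regulators and transport genes overlap.

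The isoprenoid segment makes the building blocks shared by sterols, dolichol, ubiquinone and the lipid anchors of small GTPases. Both members rose. Idi1 (chr13:8885501-8892451, plus strand), which isomerises isopentenyl diphosphate, was at 178, 169 and 193 CPM in WT and 347, 368 and 347 CPM in DNAJ-PKAc. Both groups were tight and far apart, with a fold of 1.96 (log2 0.97, SE 0.14, adjusted p = 0.0170). Fdps (chr3:89093588-89101959, minus strand), which makes farnesyl diphosphate, was at 416, 316 and 418 CPM in WT and 762, 806 and 669 CPM in DNAJ-PKAc. Here DNAJ-PKAc C was the lowest of its group but still 1.60 times the highest WT library, and the fold was 1.94 (log2 0.96, SE 0.18, adjusted p = 0.0358).

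The next segment joins farnesyl units into squalene and closes the ring to lanosterol. Fdft1 (chr14:63145150-63179578, minus strand), squalene synthase, was at 134, 108 and 144 CPM in WT and 217, 232 and 297 CPM in DNAJ-PKAc. The groups did not overlap, DNAJ-PKAc C was the highest, and the fold of 1.93 lay close to the threshold (log2 0.95, SE 0.19, adjusted p = 0.0459). Lss (chr10:76531588-76557138, plus strand), the cyclase that makes lanosterol, was at 71.2, 81.7 and 77.3 CPM in WT and 186, 178 and 159 CPM in DNAJ-PKAc. The lowest DNAJ-PKAc library, C, was 1.95 times the highest WT library, and the fold was 2.27 (log2 1.19, SE 0.15, adjusted p = 0.0102). Sqle, squalene epoxidase, which lies between them in the route and is a rate-limiting step, ran from 443 to 478 CPM in WT and from 603 to 672 CPM in DNAJ-PKAc. Its groups were tight and did not overlap, but its log2 difference of 0.46 did not pass (adjusted p = 0.136).

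The last segment takes lanosterol to cholesterol by removing methyl groups and moving double bonds, and 4 of its 9 members rose. Cyp51 (chr5:4081145-4104746, minus strand), lanosterol demethylase, was at 210, 172 and 206 CPM in WT and 325, 353 and 394 CPM in DNAJ-PKAc. No libraries overlapped, and the fold was 1.82 (log2 0.87, SE 0.16, adjusted p = 0.0365). Nsdhl (chrX:72918557-72958514, plus strand), a dehydrogenase of the C4 demethylation complex, was at 44.7, 36.2 and 52.7 CPM in WT and 106, 111 and 115 CPM in DNAJ-PKAc. Each DNAJ-PKAc library was at least 2.01 times the highest WT library, and the fold was 2.49 (log2 1.31, SE 0.18, adjusted p = 0.0134). The product of 0610007P14Rik (chr12:85815448-85824550, minus strand), the mouse Erg28, is thought to hold that complex together rather than to catalyse a step. It was at 35.2, 29.4 and 36.4 CPM in WT and 69.7, 67.3 and 72.3 CPM in DNAJ-PKAc, a fold of 2.07 with no overlap (log2 1.05, SE 0.15, adjusted p = 0.0170). Sc5d (chr9:42251595-42264256, minus strand), a sterol desaturase, was at 53.7, 43.9 and 56.0 CPM in WT and 94.2, 93.2 and 96.3 CPM in DNAJ-PKAc. The DNAJ-PKAc libraries were nearly equal, all above WT, and the fold was 1.85 (log2 0.89, SE 0.15, adjusted p = 0.0289).

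The remaining 5 sterol-segment genes had differences from 0.64 to 1.07 on the log2 scale and did not pass. The partners of Nsdhl in C4 demethylation were Msmo1, at 236 to 350 CPM in WT and 474 to 527 CPM in DNAJ-PKAc (adjusted p = 0.0899), and Hsd17b7, at 46.9 to 68.0 CPM and 91.9 to 155 CPM (adjusted p = 0.0905). Ebp, the sterol isomerase, ran from 35.1 to 38.5 CPM and from 54.6 to 59.7 CPM (adjusted p = 0.0599). Dhcr7, which makes cholesterol from its last precursor in one branch of the route, ran from 9.21 to 17.1 CPM and from 21.2 to 45.3 CPM (adjusted p = 0.172). In these 4 genes the groups did not overlap. Tm7sf2, a sterol reductase, overlapped, with 26.4 to 42.6 CPM in WT and 39.4, 40.7 and 89.8 CPM in DNAJ-PKAc (adjusted p = 0.312). Its difference rested on DNAJ-PKAc C, without which the log2 difference was 0.18.

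Of the 10 genes that rose, 5 have exons that overlap another annotated gene (Idi1, Fdps, Fdft1, Lss and Cyp51), and their levels are uncertain. Fdps overlaps Gm43738 on its own strand, which counting by strand would not separate. For Idi1, Fdft1, Lss and Cyp51 the overlap is on the other strand. Whether the counting used strand is not known from the sources used here. The partners include Ctsb on the other strand of Fdft1 and Akap9 on the other strand of Cyp51. Pmvk, Nsdhl, 0610007P14Rik and Sc5d have no such overlap. Their expected counts were whole, which shows no sign of shared reads but does not exclude them.

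The SREBP regulators sense sterols and set the output of the route. With all libraries all 5 had fitted differences below 0, that of Srebf2 only with WT B included. In either direction 0 of 5 passed the test, with a median of -0.23. Srebf2, which encodes SREBP2, was at 115, 275 and 123 CPM in WT and 149, 141 and 155 CPM in DNAJ-PKAc. WT B was far above every other library, and all DNAJ-PKAc libraries lay above WT A and C. The log2 difference was -0.20 (SE 0.34, adjusted p = 0.746), and without WT B it turned to 0.28. Srebf1, which encodes the related SREBP1 of fatty acid synthesis, was at 160, 194 and 159 CPM in WT and 130, 120 and 149 CPM in DNAJ-PKAc. All DNAJ-PKAc libraries were lower, by less than the test could call (log2 -0.36, SE 0.16, adjusted p = 0.247), and its exons overlap Rai1 on the other strand. Scap, the escort that carries SREBP to the Golgi, was at 83.2, 112 and 95.7 CPM in WT and 89.7, 81.9 and 104 CPM in DNAJ-PKAc, with overlapping groups (log2 -0.08, adjusted p = 0.812).

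The INSIG genes encode the proteins that retain SCAP, and Insig1 is itself a known SREBP target. Insig1 was at 109, 85.0 and 123 CPM in WT and 88.1, 95.1 and 87.0 CPM in DNAJ-PKAc. The groups overlapped, and the log2 difference was -0.23 (SE 0.18, adjusted p = 0.460). Every synthesis gene had a difference above 0, but the contrast between Insig1 and these genes was not tested. Insig2 (chr1:121304353-121332589, minus strand) was at 44.2, 54.8 and 39.6 CPM in WT and 27.7, 26.4 and 32.05 CPM in DNAJ-PKAc. Every DNAJ-PKAc library was below every WT library, a log2 difference of -0.69 (SE 0.18) that did not pass in edgeR (adjusted p = 0.103) but did in DESeq2 (adjusted p = 0.0181). It was the only member that DESeq2 called lower.

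In 0 of the 5 tested transport and storage genes did the difference pass the test. Stard4, a carrier of cholesterol between membranes, was at 15.2, 30.3 and 15.2 CPM in WT and 27.3, 29.1 and 39.8 CPM in DNAJ-PKAc. WT A and C were low and WT B lay among the DNAJ-PKAc libraries (log2 0.66, SE 0.32, adjusted p = 0.273). Npc1, which exports cholesterol from lysosomes, was at 121, 181 and 114 CPM in WT and 93.5, 92.0 and 105 CPM in DNAJ-PKAc. Its DNAJ-PKAc libraries were all lower and WT B the highest (log2 -0.52, SE 0.21, adjusted p = 0.214), and its exons overlap Rmc1 on the other strand. Npc2, which hands cholesterol to Npc1, was at 772, 555 and 833 CPM in WT and 816, 823 and 1392 CPM in DNAJ-PKAc, overlapping with DNAJ-PKAc C far above the rest (log2 0.49, adjusted p = 0.325). The lysosomal partners thus had fitted differences of opposite sign, neither past the test.

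Soat1, which esterifies cholesterol for storage, was at 204, 212 and 166 CPM in WT and 251, 275 and 125 CPM in DNAJ-PKAc. DNAJ-PKAc A and B were above WT and C below it, so that the log2 difference was 0.16 with all libraries (adjusted p = 0.773) and 0.44 without DNAJ-PKAc C. Mylip, the LXR target that marks lipoprotein receptors for breakdown, was at 24.5, 22.2 and 46.4 CPM in WT and 20.1, 18.5 and 65.1 CPM in DNAJ-PKAc. Replicate C was the highest library in both groups, A and B were slightly lower in DNAJ-PKAc, and the log2 difference of 0.15 (adjusted p = 0.884) turned to -0.68 without DNAJ-PKAc C. Abca1, the LXR-driven cholesterol exporter, had 2, 10 and 10 counts in WT and 5, 4 and 18 counts in DNAJ-PKAc, too few to test. The LXR receptors overlapped between groups: Nr1h2 ran from 49.2 to 54.4 CPM in WT and from 39.6 to 53.0 CPM in DNAJ-PKAc (adjusted p = 0.551). Nr1h3 was low, at 2.85 to 3.73 CPM and 3.09 to 4.02 CPM (adjusted p = 0.822).

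To compare levels between genes, mean CPM was divided by the length of the longest protein-coding transcript. On this scale Fdps was the highest of the 32 in both groups, at 277 CPM per kb in WT and 539 CPM per kb in DNAJ-PKAc, followed by Npc2 at 218 and 306 CPM per kb. Sqle and Msmo1 came next, at 167 and 147 CPM per kb in WT and 229 and 245 CPM per kb in DNAJ-PKAc. The lowest were Abca1, Nr1h3, Stard4 and Dhcr7, from 0.0809 to 5.02 CPM per kb in WT. Some synthesis genes passed regulators in the order: Pmvk stood 18 of 32 in WT and 10 in DNAJ-PKAc, and Lss 25 and 16, while Srebf1 stood 10 and 19. The order rests on mean levels and on the transcript length used, and neighbours in it were not tested. Before division by length, mean CPM was higher for Npc2 (720 in WT and 1010 in DNAJ-PKAc) than for Fdps (383 and 746).

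The synthesis genes lay above WT in each DNAJ-PKAc library. Relative to the WT mean, the median log2 level of the 19 genes was 0.77, 0.85 and 1.05 in the DNAJ-PKAc libraries A, B and C and 0.06, -0.19 and 0.13 in those of WT. All 19 genes were above their WT mean in every DNAJ-PKAc library, by factors of 1.07 (Mvk in C) to 3.63 (Pmvk in C). DNAJ-PKAc C was the highest of its group for 13 of the 19, and 12 of the 19 were within a factor of 1.25 of the mean of A and B. The median of the 10 proliferation genes was 2.13 and 2.12 in A and B but -1.54 in C, on the other side of WT. WT B was the lowest WT library for 14 of the 19 synthesis genes and the highest for 10 of the other 13 members. The part of its different RNA makeup in these values, and that of the marker and proliferation genes that differ between the groups, was not tested.

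**Figure D3:**
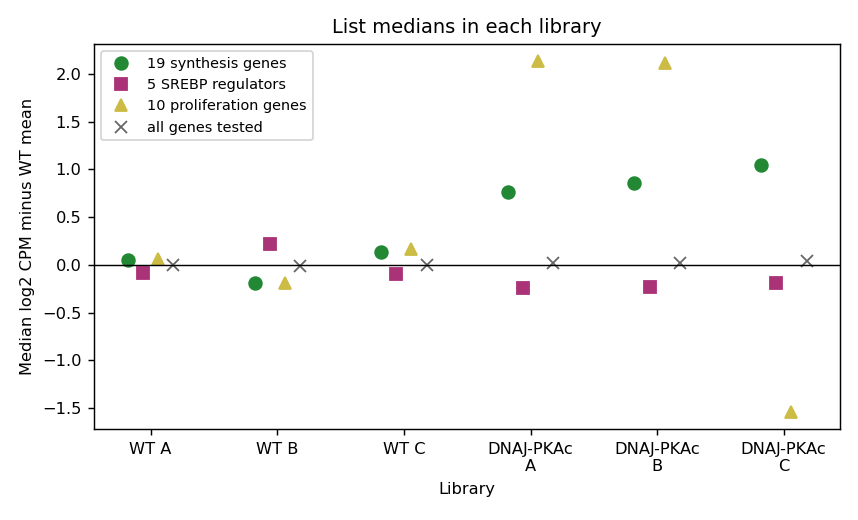
Median log2 level relative to the WT mean (vertical axis) in each of the 6 libraries for the synthesis genes, the SREBP regulators, 10 proliferation genes and all genes tested. The synthesis genes stand at 0.77, 0.85 and 1.05 in the DNAJ-PKAc libraries, whereas the proliferation genes stand at 2.13 and 2.12 in A and B and at -1.54 in C.

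The number of calls depended on which libraries were used. Without DNAJ-PKAc C the test called 14 members higher, all of them synthesis genes, and 1 lower (Insig2, log2 -0.77, adjusted p = 0.0238). In that fit 14.3% of all genes tested were called higher and 11.0% lower, so the rise in the count of members came with a rise over all genes. Leaving out any other library lowered the count: 1 gene was called without WT A (Pmvk), 5 without WT B, 2 without WT C (Acat2 and Nsdhl), and 2 without DNAJ-PKAc A or without DNAJ-PKAc B (Acat2 and Pmvk each time). The share of all genes called higher fell as well, to 0.171% without WT A, 0.235% without WT B and 0.171% without WT C. It was 0.243% without DNAJ-PKAc A and 0.225% without DNAJ-PKAc B, beside 1.37% with all libraries. Acat2 kept an adjusted p under 0.05 in 5 of these 6 fits (0.0579 without WT A), as did Pmvk (0.0558 without WT C). Idi1, Fdps, Fdft1, Cyp51 and Sc5d kept it only without DNAJ-PKAc C. The fitted differences themselves stayed above 0 for all 19 synthesis genes in all 6 fits, the lowest being 0.17 for Mvk. With WT B and DNAJ-PKAc C left out together, that of Tm7sf2 was -0.04, and with library quality weights in limma-voom it was 0.08. Upper-quartile scaling left 6 of the 10 calls, and Fdps, Fdft1, Cyp51 and Sc5d no longer passed.

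**Figure D4:**
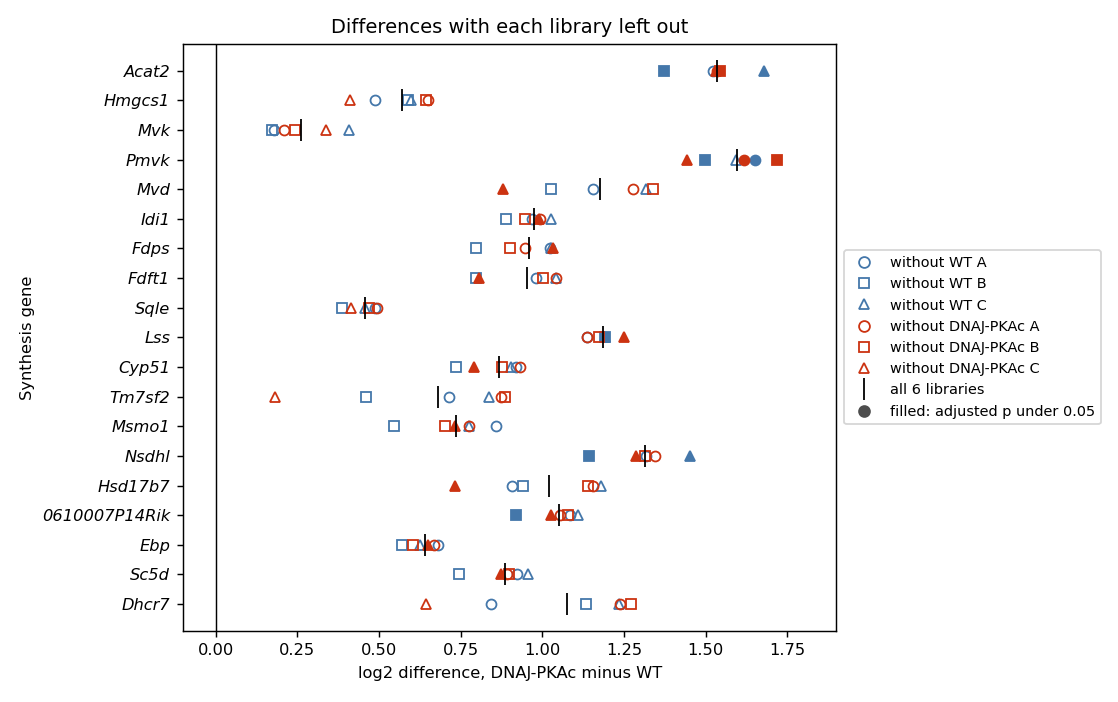
Log2 difference (DNAJ-PKAc minus WT, horizontal axis) of each synthesis gene with all 6 libraries (black tick) and with each library left out in turn (symbols), filled where the adjusted p was under 0.05. Every symbol lies above 0, and 14 symbols without DNAJ-PKAc C are filled, against 1 to 5 for each other library. Over all genes tested, 14.3% were called higher without DNAJ-PKAc C, against 0.171% to 0.243% without each other library.

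Genes around the set were read from lists of the same pathways. Of 14 tested genes of SREBP processing and degradation, 0 passed in edgeR (1 higher and 1 lower at an unadjusted p under 0.05), limma-voom called 0, and DESeq2 called 1 lower. That gene was Rnf145, a ubiquitin ligase of SCAP and of the reductase step, at 206, 214 and 233 CPM in WT and 142, 143 and 121 CPM in DNAJ-PKAc. Its groups did not overlap, and its log2 difference was -0.68 (SE 0.15, adjusted p = 0.0589 in edgeR and 0.00108 in DESeq2). Of 11 tested genes that carry isoprenoids into prenylation, dolichol and ubiquinone, 10 had differences above 0 but 0 passed (2 higher and 0 lower at an unadjusted p under 0.05, and 0 by DESeq2 or limma-voom), with a median of 0.24. The smallest adjusted p there was that of Pdss2, a subunit of the enzyme that makes the ubiquinone tail, at 6.42 to 8.72 CPM in WT and 12.3 to 14.9 CPM in DNAJ-PKAc (log2 0.82, adjusted p = 0.106).

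Of 15 other tested sterol transport genes, 1 fell and 0 rose in edgeR (4 lower and 0 higher at an unadjusted p under 0.05), beside 2.14% of all genes tested that were called lower. DESeq2 called 3 lower (Abcg1, Cav1 and Stard3), and limma-voom 1. Abcg1, an LXR-driven exporter of sterols, was at 34.0, 33.6 and 40.5 CPM in WT and 12.2, 14.4 and 20.4 CPM in DNAJ-PKAc. Every DNAJ-PKAc library was lower, and the log2 difference was -1.20 (SE 0.23, adjusted p = 0.0390). Of 6 tested oxysterol and LXR partner genes, 1 rose and 0 fell in edgeR (1 higher and 2 lower at an unadjusted p under 0.05), beside 1.37% of all genes called higher. DESeq2 called 1 higher and 1 lower (Cyp27a1), and limma-voom 1 higher and 0 lower. Lpcat3, a phospholipid acyltransferase that LXR also drives, was at 40.0, 45.0 and 38.9 CPM in WT and 76.3, 71.1 and 63.9 CPM in DNAJ-PKAc. Its groups did not overlap either, and the log2 difference was 0.77 (SE 0.15, adjusted p = 0.0423). These LXR targets moved in opposite directions, and either call was lost when any single library but DNAJ-PKAc C was left out, with adjusted p up to 0.164 for Abcg1 and 0.205 for Lpcat3.

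The fatty acid genes driven by SREBP1 had fitted differences in both directions. Of 14 tested, 9 had differences above 0 and 5 below, and 0 passed in edgeR (3 higher and 1 lower at an unadjusted p under 0.05), 1 higher (Fads2) and 1 lower (Fasn) passed in DESeq2, and 0 passed in limma-voom. The desaturase Fads2 ran from 30.2 to 35.5 CPM in WT and from 46.4 to 63.4 CPM in DNAJ-PKAc (log2 0.71, adjusted p = 0.0853). The elongase Elovl6 ran from 154 to 193 CPM and from 233 to 264 CPM (log2 0.56, adjusted p = 0.116). In both the DNAJ-PKAc libraries were all above WT. This held for 5 of the 14 genes, beside 15.8% of all genes tested. In 1 of the 14 all DNAJ-PKAc libraries were below WT, beside 13.1%. The median log2 difference of the 14 genes was 0.18, beside 0.96 for the synthesis genes.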

How the data were processed

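Total RNA of 6 libraries was measured, 3 of WT and 3 of DNAJ-PKAc, and the labels' protocols name a kit for stranded total RNA. The deposited table holds the authors' expected counts per gene symbol, not normalized, per the file headers and the column totals. STAR 2.5.2b, RSEM 1.3.0 and mm10 are named, without a role, in the submitters' processing notes. The annotation, any filters and a strand setting were not given in the sources used here.

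Expected counts were rounded, filtered with filterByExpr (minimum count 10), scaled by TMM and fitted in edgeR 4.0.16 (R 4.3.3) by a robust quasi-likelihood model with group as the only term. The model was fitted on the whole table and adjusted over all 10975 genes tested. The SE of a log2 difference is its size divided by the square root of the F statistic. The script was tested on simulated counts. Alternatives were RLE and upper-quartile scaling, other filters, DESeq2 1.42.0, limma-voom (limma 3.58.1) with and without library quality weights, no robust option, a replicate block, other thresholds, structural RNA left out, and libraries left out singly and WT B with DNAJ-PKAc C. The labels do not say whether the replicate letters mark a shared batch. Across genes, deviations from the group means correlated at 0.21, -0.20 and 0.03 for same-letter libraries A, B and C. Those of different-letter libraries ran from -0.28 to 0.30. With 3 libraries per group these values cannot exclude a shared batch.

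The members, lists, promoter motifs and alternatives were chosen with earlier results of these data known. Library values are given for each member past the threshold and for regulators and transport genes, ranges for the others, and at most 3 genes of smallest adjusted p in each other list. Gene positions and lengths are from GENCODE M21, and promoter sequences from RefSeq on GRCm38.p6. Library totals ran from 8095549 to 9969590, and counts were lowest for Abca1 (49 in all libraries) and Nr1h3 (185). The SE of the log2 difference was largest for Mylip, at 0.54, against 0.28 for Nr1h3. Other genes of this pathway in the table are not reported here.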

Additional observations from a re-analysis of the deposited data

How the results depend on the processing

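With all libraries 10 members were called higher and 0 lower, of 385 calls over all genes (150 higher and 235 lower). Members higher numbered 6 with upper-quartile scaling (114 higher and 295 lower over all genes), 2 at a threshold of 0.01, and 19 both with quality weights and with WT B and DNAJ-PKAc C left out together. Members lower numbered 1 in DESeq2 and 5 in each of the latter 2 settings. Over all genes, quality weights gave 2757 higher (25.1% of 10975 tested) and 2317 lower. Leaving out both libraries gave 2633 higher (23.9% of 11012 tested) and 2703 lower. DESeq2 called 626 of 10975 lower, and at a threshold of 0.01 the share called higher was 0.128%. Calls over all genes numbered 974 in DESeq2, 5074 with quality weights, 5336 with WT B and DNAJ-PKAc C left out, 718 at a threshold of 0.1 and 72 at 0.01. With each library left out in turn, members higher ranged from 1 to 14, members lower from 0 to 1, calls over all genes from 77 to 2808, and the median log2 difference over the tested members from 0.48 to 0.73. With the replicate block 5 members were called higher (Acat2, Pmvk, Mvd, Lss and Nsdhl) and 199 genes in all, 56 higher and 143 lower. Whether the letters mark a shared batch is not known. Mylip reversed with quality weights (log2 -0.74, adjusted p = 0.0427, limma-voom). The cause of these changes was not tested, except that leaving out a library leaves fewer samples. The counts of members higher with RLE scaling, other filters, no robust option, limma-voom and structural RNA left out stayed at 10, the same 10 genes. The scaling moved the median of all genes from 0.05 to 0.00 (RLE) and -0.02 (upper quartile). With 3 libraries per group, a missed threshold does not show that levels are equal.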

Other observations

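Krt8, a keratin of simple epithelia and the only biliary marker tested, was at 8.11, 7.47 and 7.51 CPM in WT and 1.39, 1.11 and 0.122 CPM in DNAJ-PKAc (edgeR log2 -3.09, adjusted p = 0.0360). Cyp27a1, which makes the LXR ligand 27-hydroxycholesterol, ran from 4.20 to 8.88 CPM in WT and from 0.988 to 3.05 CPM in DNAJ-PKAc, with no overlap between groups (log2 -1.72). It did not pass in edgeR (adjusted p = 0.111) but did in DESeq2 (adjusted p = 0.0135). Fasn, fatty acid synthase, was at 925, 2002 and 1184 CPM in WT and 741, 674 and 795 CPM in DNAJ-PKAc. Every DNAJ-PKAc library was below every WT library, and WT B was the highest. The log2 difference of -0.90 did not pass in edgeR (adjusted p = 0.155) but did in DESeq2 (adjusted p = 0.0350).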
